A study of Mus musculus with 16 samples.

Results

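The progestin and adiponectin receptor genes Paqr7, Paqr9, Adipor1, Adipor2 and Paqr3 were followed in the livers of mice fed a water-soluble extract of Pacific krill (WEPAK). These 5 genes were found by their exact mouse gene symbol among the 20826 symbols of the tag table, and each had 1 row. Paqr7 was chosen by its lower tag level with the extract in these same libraries, so its differences with the extract are given as a description with no test. The other 4 genes were added as relatives. Paqr7 and Paqr9, 2 of the 5 members, had enough tags to enter the fit across 1046 genes, and Adipor1, Adipor2 and Paqr3 did not.

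The genes belong to the PAQR family of multi-pass membrane proteins. Paqr7 and Paqr9 encode the membrane progestin receptors alpha and epsilon, which respond to progestins at the cell surface, and PAQR9 has been linked in mouse liver to the stability of PPARalpha during fasting. Adipor1 and Adipor2 encode the receptors for adiponectin, a hormone of fat tissue; in mouse liver they are known for signalling through AMP-activated kinase (AMPK) and PPARalpha and for a ceramidase activity. Paqr3 encodes a Golgi protein known to anchor SCAP there.

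Male C57BL/6J mice, 4 weeks old per the labels and with no genetic change named there, were fed for 18 weeks, with 4 mice in each of 4 groups. HFW mice ate a high-fat diet with 1% WEPAK, and HF mice ate the high-fat diet alone, labelled 45% fat. NW mice ate a normal diet with 1% WEPAK, and N mice ate the normal diet alone, labelled 10% fat. One liver library was made per mouse by SuperSAGE, which counts a short tag beside the NlaIII site nearest the poly(A) tail of each transcript.

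The 16 libraries held between 56684 and 149464 tags, so that 1 tag stood for 6.70 to 17.7 CPM (tags per 1000000 tags, before scaling between libraries). Levels below are in CPM after that scaling (TMM). Mean depth was 75749 ± 21588 tags in HFW, 118882 ± 23746 in HF, 74198 ± 30660 in NW and 75963 ± 16768 in N (SD, n = 4 each). The 500 genes that varied most were reduced to their leading component. On it N mouse 4 (-16.5) lay beside the HF mice (-15.6 to -8.61). N mouse 8 (4.90) lay among the HFW mice (-0.251 to 6.85). N mice 5 (-4.16) and 7 (-1.16) lay between them, so the N mice were spread along the component. Calls that change without N mice 4 and 8 are given both ways. All 8 hepatocyte markers were detected in every group, and all 6 adipocyte markers, Adipoq included, had 0 tags. Summed hepatocyte markers were 49646 to 76449 CPM in HFW, 51767 to 63503 in HF, 80274 to 102463 in NW and 58832 to 81243 in N. Summed stellate cell markers were 821 to 4003 CPM in HFW, 400.0 to 3808 in HF, 290.0 to 899 in NW and 498 to 982 in N, so the high-fat and normal groups overlapped. Summed Kupffer cell markers were 69.9 to 225 CPM in HFW and 84.8 to 313 in HF. They were 102 to 187 CPM in NW and 185 to 332 in N, with overlap on each diet. Summed endothelial markers were 244 to 384 CPM in HFW, 195 to 238 in HF, 206 to 348 in NW and 208 to 291 in N. In whole liver, fewer cells of a type and less RNA per cell cannot be told apart.

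The tag that each gene should give is shown because it is the piece of the transcript that was counted. Each was read 5′ to 3′ from the GENCODE vM21 transcripts (GRCm38) as 26 bases from the last NlaIII site, which is in capitals.
Paqr7: CATGactccctgcatacaagctcaat
Paqr9: CATGaaaaaaaaaaaaagaatctaaa
Adipor1: CATGtgattgtgctctcagagctgag
Adipor2: CATGtgcacttgaccttgtggtgcct
All 4 tags lay in 3′ UTRs, and no other gene's transcripts held any of them. The Paqr7 tag was at chr4:134507981-134508006 on the plus strand, in exon 2 of 2 and 833 bases from the transcript end. The Paqr9 tag was at chr9:95567932-95567957 on the plus strand, in the gene's 1 exon, 92 bases from the end. The Adipor1 tag was at chr1:134432981-134433006 on the plus strand, in exon 8 of 8. The Adipor2 tag was at chr6:119353477-119353502 on the minus strand, also in exon 8 of 8. The Paqr9 tag stood apart in composition, at 15.4% GC and with a run of A, against 46.2% for Paqr7, 50% for Adipor1 and 53.8% for Adipor2. The nearest tag of another gene differed from the Paqr9 tag at 4 bases and from the Paqr7 tag at 6. Of the 6 annotated Paqr7 transcripts, 1 has the tag shown at its last NlaIII site. The same held for 2 of 4 Adipor1 transcripts and 1 of 5 Adipor2 transcripts. The last site of Paqr3, on chromosome 5, lay 10 bases from the annotated end, too near for a whole tag, so none is shown.

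**Figure D1:**
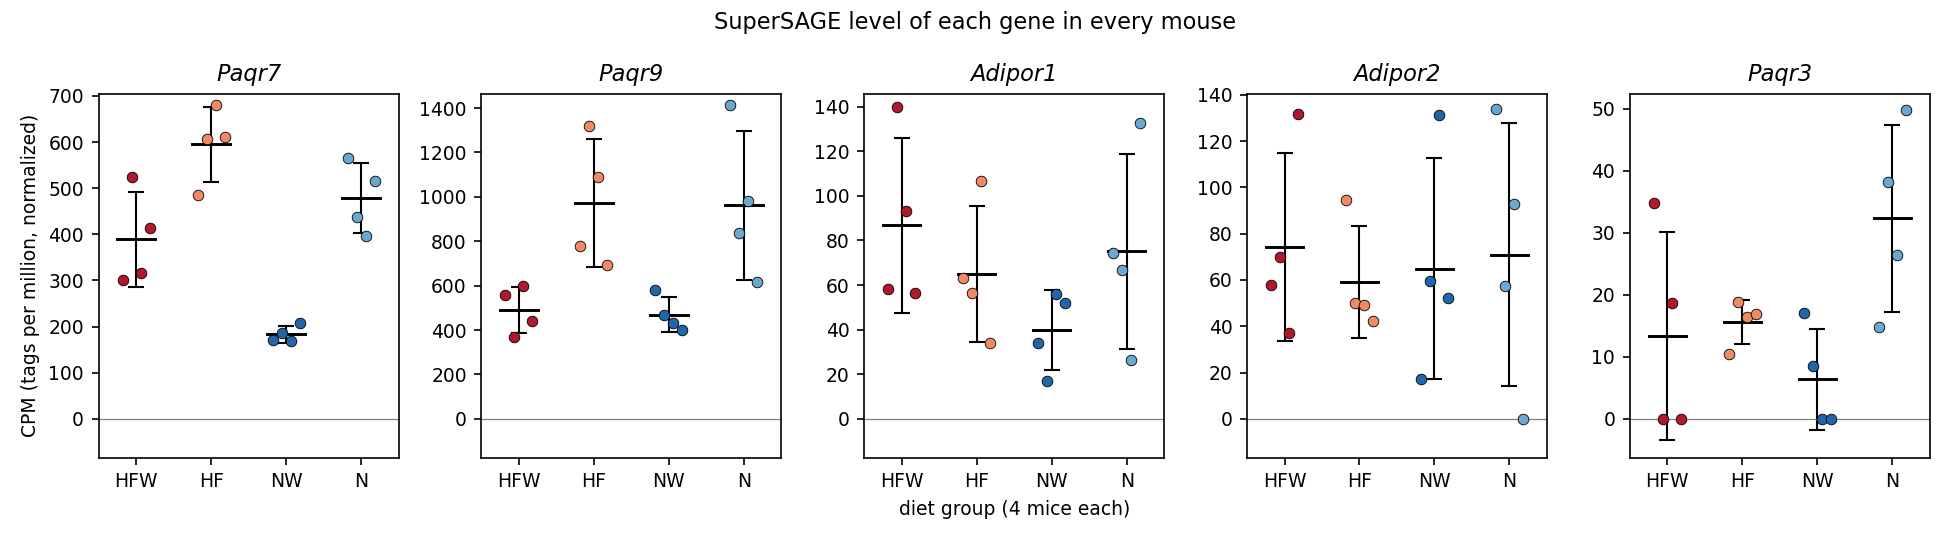
Level of each gene in every mouse, in CPM, by diet group. Points are mice, bars are the mean ± SD of 4 mice, and each panel has its own scale. Paqr7 was between 169 and 209 CPM in the NW mice, below every other mouse, and Paqr9 was lower in both WEPAK groups than in HF and N. Among tested genes, 8.89% had every NW mouse below every N mouse.

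Paqr7, the membrane progestin receptor alpha gene, had 613 tags over the 16 libraries. HFW mice 34, 36, 38 and 40 had 302, 524, 317 and 413 CPM, and HF mice 23, 25, 28 and 29 had 484, 607, 680 and 610 CPM. The groups overlapped, because HFW mouse 36 lay above HF mouse 23. NW mice 11, 12, 15 and 20 had 171, 187, 169 and 209 CPM, and N mice 4, 5, 7 and 8 had 565, 439, 397 and 515 CPM. Every NW mouse was below every N mouse, as for 8.89% of tested genes, and below every mouse of the other groups. Means were 389 ± 103 CPM in HFW, 595 ± 81.3 in HF, 184 ± 18.5 in NW and 479 ± 75.5 in N (SD, n = 4 each). The log2 difference was -0.62 (SE 0.26) for HFW against HF and -1.37 (SE 0.29) for NW against N. Averaged over both diets it was -0.99 (SE 0.19), or 50.2% of the level without extract. The drop was larger on the normal diet, by 0.75 on the log2 scale (SE 0.39). These values chose the gene and were not tested. Among all tested genes, 16.1% were called lower and 15.2% higher for the average over both diets, and 5.64% were called lower for HFW against HF and 7.36% for NW against N.

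Paqr9, the membrane progestin receptor epsilon gene, was lower with WEPAK on both diets, at about the same size on each. It was the most abundant of the 5 genes by tags, with 1077. HFW mice 34, 36, 38 and 40 had 557, 367, 596 and 441.5 CPM, and HF mice 23, 25, 28 and 29 had 779, 1320, 1089 and 695 CPM. NW mice 11, 12, 15 and 20 had 580.1, 467, 431 and 399.8 CPM, and N mice 4, 5, 7 and 8 had 1413, 839, 979 and 615 CPM. On each diet every WEPAK mouse was below every mouse without it. Such separation downward occurred for 8.89% of tested genes in each comparison and for 3.44% on both diets; edgeR called 3.15% lower on both. Means were 490.4 ± 105 CPM in HFW against 971 ± 288 in HF, and 469 ± 78.7 in NW against 962 ± 336 in N (SD, n = 4 each).

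By edgeR's quasi-likelihood test with Benjamini-Hochberg adjustment over 1046 genes, the Paqr9 log2 difference averaged over both diets was -1.01 (SE 0.20, adjusted p = 0.000440), 49.6% of the level without extract, and all 8 WEPAK mice were below the mean of their diet's mice without it. For HFW against HF it was -0.99 (SE 0.28, adjusted p = 0.0200), and for NW against N it was -1.03 (SE 0.29, adjusted p = 0.0168). A call in either direction was common, at 31.3% of genes for the average, 9.85% for HFW against HF and 11.0% for NW against N. Paqr9 ranked 42 of 1046 by p for the average. The extract difference differed between diets by 0.04 (95% interval -0.74 to 0.82, edgeR adjusted p = 0.998). No gene passed for that difference by edgeR, and 2.49% had an unadjusted p under 0.05. The calls on single diets were near the threshold, and several were lost when 1 mouse was left out while the difference stayed between -1.15 and -0.80. HFW against HF did not pass without HF mouse 25 (-0.80, edgeR adjusted p = 0.130), HFW mouse 36 (-0.91, adjusted p = 0.0620) or HFW mouse 40 (-0.98, adjusted p = 0.0584). NW against N did not pass without N mice 4 and 8 together (-0.98, edgeR adjusted p = 0.0765), nor without any 1 of N mouse 4 (-0.80, adjusted p = 0.110), N mouse 7 (-0.96, adjusted p = 0.0520), NW mouse 12 (-0.96, adjusted p = 0.0639), NW mouse 15 (-0.99, adjusted p = 0.0652) or NW mouse 20 (-0.89, adjusted p = 0.0757). The average over both diets passed each time. Hepatocyte marker sums ran to higher values in NW than in N mice, and Kupffer cell marker sums to lower values, each with overlap. Endothelial marker sums were higher in every HFW mouse (244 to 384 CPM) than in every HF mouse (195 to 238 CPM). The part of any of these in the result was not tested.

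**Figure D2:**
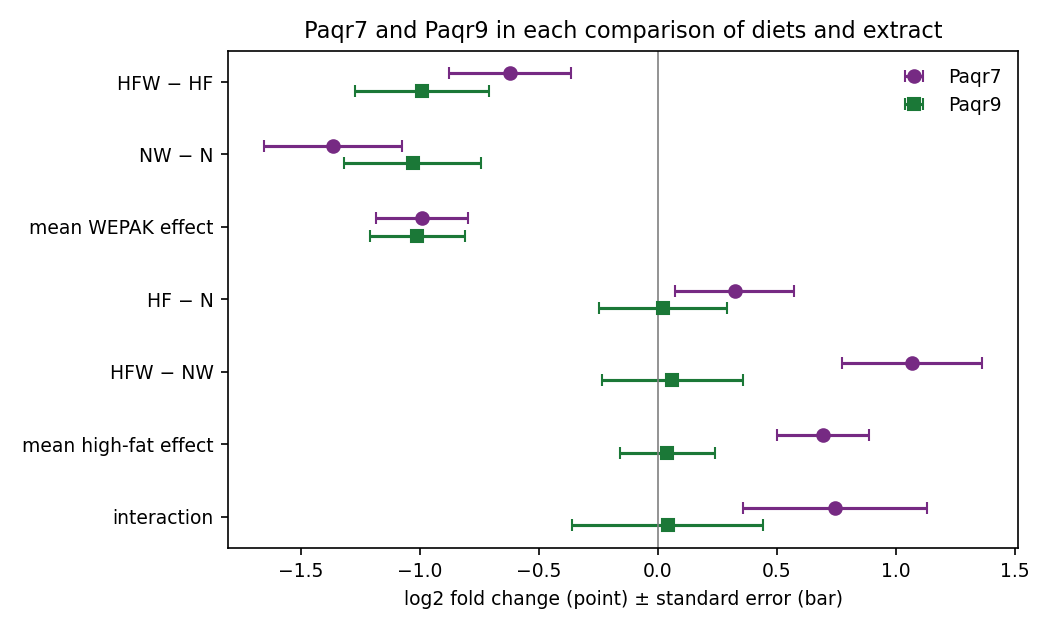
Log2 fold change (point) ± standard error (bar) of Paqr7 and Paqr9 in each comparison. Paqr9 lay near -1 in the WEPAK comparisons and near 0 in the high-fat comparisons, and Paqr7 was above 0 in the high-fat comparisons.

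Paqr7 had higher means on the high-fat diets, short of the threshold, and Paqr9 was at nearly the same mean on both diets. Paqr7 averaged 0.70 higher on the high-fat diets on the log2 scale (SE 0.19), with all 8 high-fat mice above the mean of their normal-diet group. This did not pass (edgeR adjusted p = 0.0617, unadjusted p = 0.00107). Of the genes tested 6 passed there, 0.574%, of which 3 were higher (0.287%). It passed without N mouse 4 (0.74, edgeR adjusted p = 0.0167) and without N mice 4 and 8 (0.81, adjusted p = 0.0370). Many more genes passed in those fits, 107 of 1205 tested and 55 of 1359 tested. For HF against N the Paqr7 difference was 0.32 (SE 0.25, edgeR adjusted p = 0.657), where 0.0956% of genes passed. For HFW against NW it was 1.07 (SE 0.29, edgeR adjusted p = 0.175), with every HFW mouse above every NW mouse, as for 5.74% of tested genes. No gene passed in that comparison by edgeR, with 126 (12.0%) at an unadjusted p under 0.05. The low NW libraries enter this comparison, the high-fat average and the values that chose Paqr7, so neither difference is independent of the choice. Each group likewise enters both an extract and a diet comparison. The Paqr7 p-values for the diet comparisons are therefore a description. Paqr9 averaged 0.04 higher on the high-fat diets (95% interval -0.35 to 0.43, edgeR adjusted p = 0.930), with 4 of 8 mice above the mean of their normal-diet group. The highest stellate marker sums were also on the high-fat diets, with overlap. Summed hepatocyte markers were lower in every HFW mouse (49646 to 76449 CPM) than in every NW mouse (80274 to 102463 CPM). Hepatocyte marker sums overlapped between HF and N. The part of either cell type in the diet differences was not tested.

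Because both tags are counted in 1 library, their ratio does not depend on how libraries are scaled. The ratio was examined after the values were seen, and 3 diet tests were run on it. Paqr7 tags per Paqr9 tag were 0.542, 1.43, 0.531 and 0.936 in HFW mice 34, 36, 38 and 40, and 0.622, 0.460, 0.624 and 0.878 in HF mice 23, 25, 28 and 29. They were 0.294, 0.4, 0.391 and 0.522 in NW mice 11, 12, 15 and 20, and 0.4, 0.523, 0.405 and 0.838 in N mice 4, 5, 7 and 8. The HFW mice were all above the NW mice, while HF and N overlapped. Averaged over both extract states the ratio was 1.56-fold higher on the high-fat diets, 0.64 on the log2 scale (two-sided exact permutation test within extract state, p = 0.0241). It was 2.00-fold higher in HFW than NW (exact p = 0.0286, the smallest that 4 against 4 mice allow) and 1.22-fold higher in HF than N (exact p = 0.371). The average lost its call without N mouse 4 (exact p = 0.0535), N mouse 7 (0.0535) or HF mouse 29 (0.0571). HFW against NW missed the 0.05 threshold in 6 of the 8 tests that left out a mouse, though the groups still did not overlap. With a mouse left out, exact p moves in steps of 0.0286, so only the most extreme split can pass. The NW values that chose Paqr7 also enter the average and the HFW against NW ratio, so neither is independent of that choice. Their p-values are therefore a description and do not test diet.

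**Figure D3:**
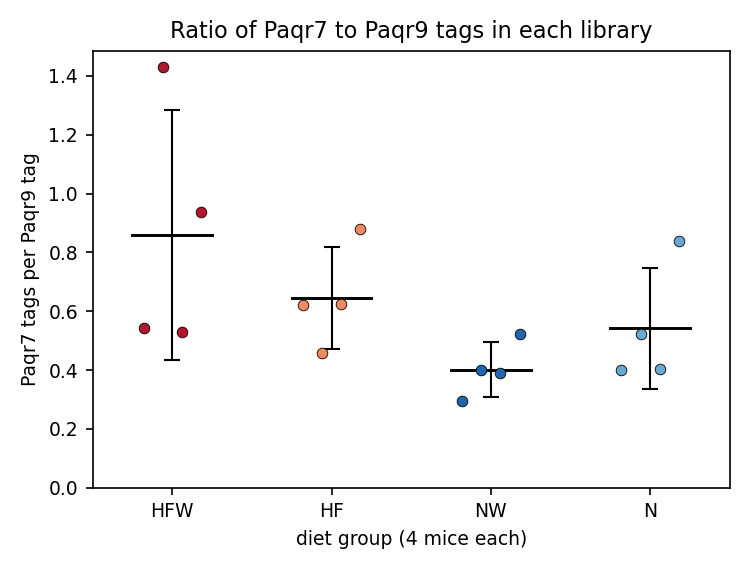
Paqr7 tags per Paqr9 tag in each mouse, by diet group, with bars for the mean ± SD of 4 mice. Mean ratios were 0.859 in HFW, 0.646 in HF, 0.402 in NW and 0.541 in N, with HF and N overlapping.

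The adiponectin receptor genes were low, and none of their differences with WEPAK passed the test with all mice included. Adipor1 had 88 tags in all 16 libraries, from 2 to 13 per mouse. It averaged 86.8 ± 39.2 CPM in HFW, 65.0 ± 30.4 in HF, 39.9 ± 18.0 in NW and 75.1 ± 43.9 in N (SD, n = 4 each), and HFW overlapped HF and NW overlapped N. Averaged over both diets Adipor1 was 6.70 CPM lower with WEPAK (two-sided exact permutation test within diet, p = 0.727). The difference was 21.9 CPM for HFW against HF (exact p = 0.429) and -35.3 CPM for NW against N (exact p = 0.171), and the second passed without N mouse 7 (-51.5 CPM, exact p = 0.0286). HFW mice 34, 36, 38 and 40 had 58.0, 139.8, 93.2 and 56.4 CPM, and NW mice 11, 12, 15 and 20 had 34.1, 17.0, 56.2 and 52.1 CPM. Those groups did not overlap, though HFW mouse 40 and NW mouse 15 nearly met. Such separation upward occurred for 5.74% of the genes that entered the fit, which Adipor1 did not. The Adipor1 means differed by 47.0 CPM (exact p = 0.0286, the smallest possible). It was 1 of 18 tests of the 3 low genes. Its call was lost without any single NW mouse or HFW mouse 36, though the groups still did not overlap. With a mouse left out, only the most extreme split gives an exact p under 0.05. In an edgeR fit without the expression filter the Adipor1 log2 difference for HFW against NW was 1.14 (adjusted p = 0.683).

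Adipor2 had 93 tags in 15 libraries. HFW mice 34, 36, 38 and 40 had 58.0, 69.9, 37.3 and 131.5 CPM, and HF mice 23, 25, 28 and 29 had 94.7, 50.1, 49.1 and 42.4 CPM. NW mice 11, 12, 15 and 20 had 17.1, 59.5, 131.1 and 52.1 CPM; N mice 4, 5 and 7 had 133.9, 57.2 and 92.6 CPM, and N mouse 8 had 0 tags, which allows up to 46.4 CPM before scaling (3 tags, counting error only). All groups overlapped. The average difference with WEPAK was 4.55 CPM (exact p = 0.828), and the average on the high-fat diets was -1.31 CPM (exact p = 0.951). In the edgeR fit without the expression filter, the log2 difference with WEPAK averaged over both diets was 0.02 for Adipor2 (SE 0.38, adjusted p = 1.00) and -0.45 for Adipor1 (SE 0.41, adjusted p = 0.846).

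Paqr3, the Golgi member, had 24 tags in 12 libraries, the fewest of the 5. There were 4 tags in the HFW group, 8 in HF, 2 in NW and 10 in N. HFW mice 36 and 40 and NW mice 15 and 20 had 0 tags, while every HF and N mouse had at least 1. The average difference with WEPAK was -14.1 CPM (two-sided exact permutation test within diet, p = 0.0592), made up of -2.30 CPM for HFW against HF (exact p = 0.857) and -25.9 CPM for NW against N (exact p = 0.0571). For HF against N it was -16.7 CPM (exact p = 0.114). None passed. The average passed without N mouse 4 (-17.0 CPM, exact p = 0.0363) or HFW mouse 34 (-17.7 CPM, exact p = 0.00776), and without N mouse 4 so did NW against N (-31.8 CPM, exact p = 0.0286) and HF against N (-22.5 CPM, exact p = 0.0286), each from a few tags.

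Of 6 other PAQR relatives, Paqr4, Paqr6, Paqr8 and Mmd2 had 0 tags, Paqr5 had 2 and Mmd had 91, and none was tested. Among 7 adiponectin ligand, binding and adaptor genes, Adipoq had 0 tags. Of the 2 tested, the adaptor gene Appl2 was at 0.41 (SE 0.19, edgeR adjusted p = 0.106) and C1qtnf1 at 0.33 (SE 0.24, adjusted p = 0.311), so 0 passed. Of 10 membrane progestin and steroid genes, 2 were tested and 0 passed: Pgrmc1, a haem-binding membrane protein gene, was at 0.11 (SE 0.20) and the sterol reductase gene Tm7sf2 at 0.15 (SE 0.24). The median over all tested genes was 0.03 on the log2 scale.

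Lists were drawn up for AMPK, PPARalpha, insulin and glucose output, ceramide turnover and Paqr3 partners, and few of their genes were tested. The tested genes that passed with WEPAK went in both directions. Differences were averaged over both diets and tested by edgeR with Benjamini-Hochberg adjustment. In the AMPK list 1 of 12 genes was tested, Acacb, at 0.50 (SE 0.39, adjusted p = 0.354). Of 13 PPARalpha and fatty acid oxidation genes, 6 were tested, with a median of -0.20. Cyp4a14, a PPARalpha target, was at -1.07 (SE 0.41) and did not pass. Of 10 insulin and glucose output genes, 2 were tested and both rose: the gluconeogenic genes Fbp1 and Pck1, each at 0.92. Of 17 ceramide turnover genes, 3 were tested and 2 fell. Smpd1, the acid sphingomyelinase gene, was at -2.23 (SE 0.41, adjusted p = 0.000440), and S1pr1, a sphingosine-1-phosphate receptor gene, at -1.58 (SE 0.27, adjusted p = 8.66e-05), while Sphk2 was at -0.01. Of 15 Paqr3 partners, 3 were tested, with a median of -0.71. Araf, a serine/threonine kinase gene, fell by 0.83 (SE 0.23). Srebf1 was at -0.71 (SE 0.34) and Scap at -0.37 (SE 0.18), and neither passed. Araf was at -1.28 for NW against N (adjusted p = 0.0149) and -0.37 for HFW against HF (adjusted p = 0.433). Srebf1 was at -1.26 and -0.15 in the same comparisons. The difference between diets did not pass for Araf or Srebf1. Against these counts, 31.3% of all tested genes were called in either direction. For the average high-fat difference no gene of these lists passed.

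**Figure D4:**
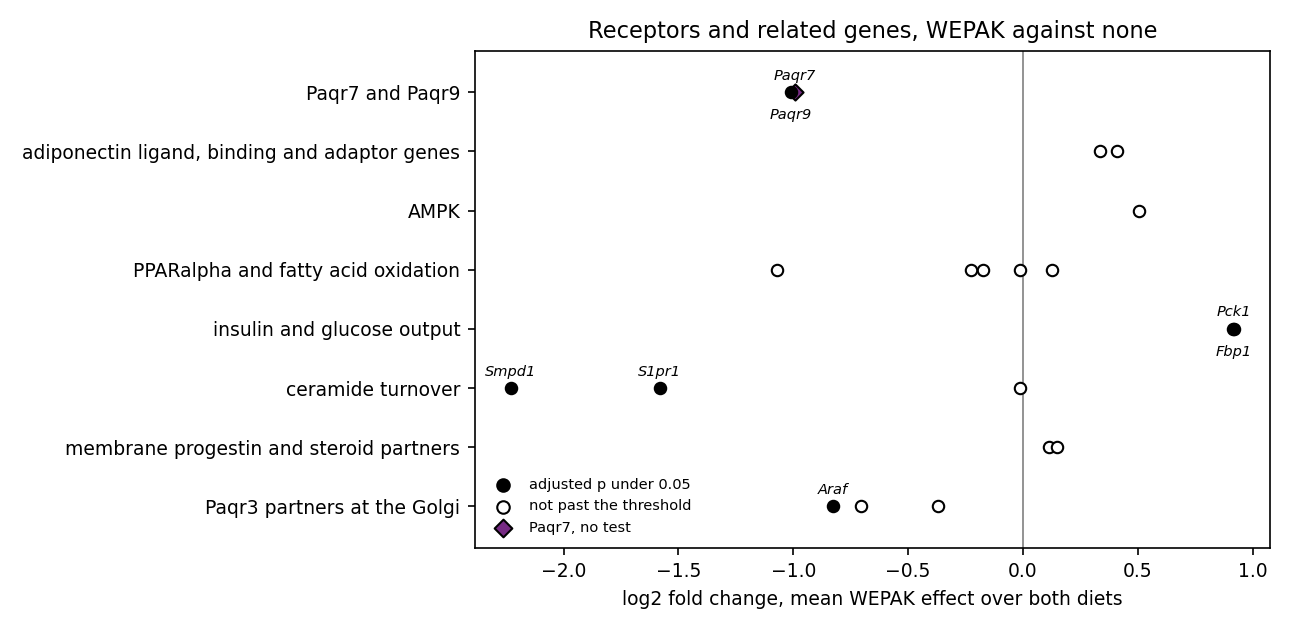
Log2 fold change averaged over both diets, with WEPAK against without, for Paqr7 and Paqr9 and for the tested genes of each list that are reported here. Filled points passed an adjusted p under 0.05, open points did not, and the diamond is Paqr7, which was not tested. Smpd1 and S1pr1 are farthest to the left, and Pck1 and Fbp1 overlie each other at 0.92.

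Paqr7's pattern was most like that of Apol7a, Entpd5, Bsg, Fam134a and Acadvl. Their Pearson correlations with Paqr7, in log2 CPM over the 16 libraries, were 0.903, 0.894, 0.891, 0.884 and 0.881, the highest of 1045 genes. These are descriptions, since the points share group means and depth. After group means were removed, the correlations were 0.497, 0.618, 0.356, 0.395 and -0.148. Paqr9 ranked 150 by the same measure, at 0.608, and at -0.167 after group means were removed.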

How the data were processed

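Raw tag counts per RefSeq transcript and mouse were deposited by the authors as 1 table, per the file headers. Per the labels' protocols, liver RNA was cut with NlaIII and EcoP15I and the tags were amplified by PCR, without mention of molecular identifiers. The SDs and standard errors include the spread between mice. Only the upper limit given for a mouse without a tag covers counting error alone. Tag matching, RefSeq release, genome build and tag length: not given in the sources used here; 26 bases was assumed for the tags shown. Counts were summed per symbol; 417 rows without one (0.0729% of tags) were left out. Groups and mouse numbers came from the labels, which give no batch. All 16 libraries were fitted together with edgeR 4.0.16 in R 4.3.3 (TMM, filterByExpr by group, robust quasi-likelihood test, Benjamini-Hochberg adjustment, threshold 0.05), checked on simulated data. Genes under the filter were compared by exact two-sided permutation of mean CPM over mice. DESeq2 1.42.0, limma 3.58.1, no filter, other scaling and leaving out mice were alternatives. Libraries of a group differed beyond sampling noise (chi-square per degree of freedom 2.24 to 9.64 over 24 pairs). The members, lists and tests were chosen with earlier results of these data known. Named genes were the members, up to 4 tested genes per list with the smallest p for the mean WEPAK effect, and the 5 genes most correlated with Paqr7. Of these, 1 gene is not reported here.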

Additional observations from a re-analysis of the deposited data

Results flagged for a closer look

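Adipor2 in the HF group had 1 mouse far from the others. HF mouse 23 had 94.7 CPM, from 9 tags, and the other HF mice had 42.4 to 50.1 CPM, from 5 to 8 tags. Its gap to the nearest mouse, divided by the range of the group, was above Dixon's 95% critical value for 4 samples. It was the 1 such value among 20 groups examined, and chance gives about 1 in 20.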

How the results depend on the processing

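The fall of Paqr9 with WEPAK, averaged over both diets, passed under all 25 alternatives (-1.14 to -0.91, adjusted p 1.59e-05 to 0.00233). Of these, 3 were chosen after seeing the data: thinning the libraries (-1.08 for that result), removing a trend on tag GC (-0.95) and leaving out N mice 4 and 8 (-1.01). Paqr9 for NW against N did not pass without the expression filter (-1.06, adjusted p = 0.0563) or without N mice 4 and 8 (-0.98). Leaving out 1 mouse at a time gave Paqr9 -1.13 to -0.80 for HFW against HF, -1.15 to -0.80 for NW against N, -0.0561 to 0.16 for the average high-fat difference, -0.16 to 0.27 for HF against N, -0.0485 to 0.18 for HFW against NW and -0.21 to 0.21 for the difference between diets. Near 0, Paqr9 changed sign with thinning for the average high-fat difference (-0.0247) and HFW against NW (-0.0990), and with the tag GC trend for HF against N (-0.0123). Its difference between diets changed sign with DESeq2 size factors (-0.0113), no filter (-0.15), the DESeq2 Wald test (-0.0119), thinning (-0.15) and without N mice 4 and 8 (-0.0639). Paqr7's average high-fat difference was 0.62 to 0.76 without 1 mouse and 0.81 without N mice 4 and 8. The cause was not tested.

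In CPM, leaving out 1 mouse gave Adipor1 -15.5 to 2.93 with WEPAK on average and -26.4 to 9.10 for HF against N. For Adipor2 it gave -7.27 to 15.0 with WEPAK on average, -4.03 to 27.4 for HFW against HF, -29.6 to 15.0 for NW against N, -13.1 to 9.71 for the average high-fat difference (0.709 with CPM of the raw total), -35.5 to 9.13 for HF against N and -9.88 to 31.3 for HFW against NW. For Paqr3 it gave -9.45 to 2.15 for HFW against HF and -0.18 to 11.4 for HFW against NW. On the log2 scale Sphk2 was 0.10 with limma-voom and -0.15 to 0.15 without 1 mouse, and Pgrmc1 was -0.0156 without the filter and -0.0144 to 0.22 without 1 mouse. Paqr3 with WEPAK on average passed with CPM of the raw total (-14.5, exact p = 0.0465). Srebf1 passed under 3 alternatives and Cyp4a14 under 4.

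The number of genes called was 103 for HFW against HF, 40 to 150 without 1 mouse (40 without HF mouse 25) and 156 without N mice 4 and 8. For NW against N it was 115, 31 to 178 without 1 mouse (31 without N mouse 4), 70 without the filter and 38 without N mice 4 and 8. For the average high-fat difference it was 6, 0 to 107 without 1 mouse (107 without N mouse 4), 17 with the DESeq2 Wald test, 30 without the filter and 55 without N mice 4 and 8. For HF against N it was 1, with 0 to 31 without 1 mouse (31 without N mouse 4), 2 with the DESeq2 Wald test and 0 with limma-voom, with thinning or in a fit on the compared groups only. For HFW against NW it was 0, and 0 to 3 without 1 mouse and 3 in a fit on the compared groups only. No paired analysis was possible because each mouse number belongs to 1 group. Depth limits Adipor1, Adipor2 and Paqr3 to 14 tags or fewer in any mouse.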
